A study of Mus musculus with 9 samples.

Results

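The olfactory bulb interneuron factors are 9 genes, Sp8, Sp9, Tshz1, Vax1, Pbx3, Meis2, Prokr2, Scgn and Th, chosen by name. All 9 were found in both deposited tables, among 22496 genes in the table of ShhN IUE and 23624 in the table of SmoM2. Bulk RNA was sequenced from the cortex of newborn mice at postnatal day 0, in 9 libraries. In 3 libraries, labelled ShhN IUE, ShhN, an active N-terminal form of the secreted signal Sonic hedgehog (SHH), had been introduced into the brain by in utero electroporation. Another 3, labelled SmoM2, came from mice with hGFAP-Cre and a conditional SmoM2 allele, so that Cre driven by the human GFAP promoter switches on an activated form of Smoothened, the transducer of the SHH signal. The last 3 came from wild-type littermates. All groups share a mixed strain background from C57BL/6J, 129S6 and CD1. The libraries include neither an electroporation control nor Cre alone, so effects of these procedures and of the SHH pathway cannot be told apart. The labels do not say whether libraries of a group came from separate animals, so the p-values cover only variation among the libraries at hand, which may be technical.

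Olfactory bulb interneurons are inhibitory neurons born beside the lateral ventricles, in the lateral ganglionic eminence (LGE) of the embryo and later in the subventricular zone. They migrate along the rostral migratory stream into the olfactory bulb and settle there as granule and periglomerular cells. Sp8 and Sp9 encode related zinc finger transcription factors that these cells need in the mouse, where Tshz1 and Prokr2 depend on both. Tshz1, another zinc finger factor, acts late in migration within the bulb, and Prokr2 encodes the receptor of the migration cue prokineticin 2. Vax1 is a homeobox gene of the ventral forebrain, and Pbx3 and Meis2 encode homeodomain factors of the TALE class. Scgn encodes secretagogin, a calcium-binding protein of maturing bulb interneurons, and Th encodes tyrosine hydroxylase, the rate-limiting enzyme of catecholamine synthesis and the marker of dopaminergic periglomerular cells. Sp9, Tshz1, Pbx3 and Meis2 are also made in cells of the LGE that become striatal neurons, so they are not specific to the olfactory bulb lineage.

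Promoters of the members are shown first, as a description. RefSeq promoter sequences (GRCm38.p6), from 250 bases before to 50 after an annotated start, were used for 9 starts of 7 members. None was used for Pbx3 or for Tshz1, which was left out by its chromosome. Those of Sp8, with the largest rise, of its paralog Sp9, and of Prokr2, which responded in SmoM2, are printed 5′ to 3′. Sp8 (first of 3 starts, chr12:118846079-118846378) and Sp9 (chr2:73271676-73271975) lie on the forward strand and Prokr2 (chr2:132385398-132385697) on the reverse strand. Capitals mark exact matches to a homeodomain core (TAATT or AATTA), a GC box of the kind bound by SP factors (GGGCGG or CCGCCC) or a MEIS core (TGACAG or CTGTCA).
Sp8: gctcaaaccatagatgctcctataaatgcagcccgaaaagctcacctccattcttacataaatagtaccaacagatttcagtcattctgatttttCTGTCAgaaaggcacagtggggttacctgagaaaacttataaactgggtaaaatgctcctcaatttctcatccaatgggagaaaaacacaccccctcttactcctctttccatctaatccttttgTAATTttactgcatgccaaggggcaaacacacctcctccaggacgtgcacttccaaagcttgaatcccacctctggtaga
Sp9: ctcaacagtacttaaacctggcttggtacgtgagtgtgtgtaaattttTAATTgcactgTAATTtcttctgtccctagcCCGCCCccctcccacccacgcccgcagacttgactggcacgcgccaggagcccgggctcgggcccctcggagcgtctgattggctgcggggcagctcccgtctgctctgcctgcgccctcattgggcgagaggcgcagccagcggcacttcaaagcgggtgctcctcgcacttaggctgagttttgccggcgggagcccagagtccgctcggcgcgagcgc
Prokr2: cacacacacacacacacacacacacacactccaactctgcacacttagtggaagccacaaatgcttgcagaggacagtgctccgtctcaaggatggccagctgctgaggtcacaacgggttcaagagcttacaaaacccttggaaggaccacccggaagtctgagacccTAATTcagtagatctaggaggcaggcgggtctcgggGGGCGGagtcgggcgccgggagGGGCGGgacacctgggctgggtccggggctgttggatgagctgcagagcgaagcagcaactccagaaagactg
The Sp8 promoter printed here, the first of 3, held 1 homeodomain core and 1 MEIS core. The second held only 1 GC box, and the third only 2 homeodomain cores. The Sp9 promoter held 2 homeodomain cores and 1 GC box, and the Prokr2 promoter held 1 homeodomain core and 2 GC boxes. Of the 9 member promoters, 7 held a homeodomain core, against 8881 of 32851 promoters of the same length. A GC box stood in 5 of 9, against 35.7% of all, and a MEIS core in 1 of 9, against 19.2%. Since 3 of the 9 promoters belong to Sp8, these are not counts of members. By gene, 6 of 7 held a homeodomain core, 5 of 7 a GC box and 1 of 7 a MEIS core. The shares over all are per promoter, so these counts by gene have no share beside them. They leave out Tshz1 and Pbx3, which rose in SmoM2. They include Meis2 and Th, for which no rise was called and which each held 1 homeodomain core. The counts therefore do not describe the members that rose. The GLI consensus, GACCACCCA or TGGGTGGTC, stood in 0 of 9 and in 0.253% of all promoters. At so low a share, 0 of 9 cannot tell the members from other promoters. Sites that differ from the consensus by a base were not counted. Matches were searched on both strands, and TAATT and AATTA can overlap, as in the third start of Sp8. They describe letters in these windows and were not tested.

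Library totals were 15376071 to 19604672 counts in ShhN IUE, 23625702 to 26923127 in SmoM2, and 18610507 to 21694348 in wild type in the ShhN IUE table. The same wild-type libraries were deposited in both tables with partly different counts. Each intervention was therefore set against the wild type of its own table. Summed wild-type counts of Sp8, Vax1 and Th were identical in the tables (769, 74 and 26). Those of Sp9, Tshz1, Pbx3 and Meis2 differed by at most 0.07 on the log2 scale, and those of Prokr2 were 1167 in the ShhN IUE table and 1255 in the SmoM2 table. Levels below are CPM (counts scaled to library size, with TMM factors), and FPKM, which also divides by gene length, is used where genes are compared with each other. The fold changes are from the quasi-likelihood F test of edgeR over all genes, with adjusted p by Benjamini-Hochberg and a threshold of 0.05.

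Of the 9 genes, 4 rose in ShhN IUE (Sp8, Sp9, Tshz1 and Vax1), where 16.1% of all 16180 genes tested rose. In SmoM2 6 rose (the same 4 with Pbx3 and Prokr2), where 9.59% of all 16485 genes tested rose. The members were chosen with results of these data known. Of the members tested, 0 fell in either comparison by edgeR, also at an unadjusted p under 0.05 and by DESeq2 and limma-voom, but in SmoM2 these tests did not include Th, which was lower there. In ShhN IUE the other members tested, Pbx3, Meis2, Prokr2 and Th, did not pass, and Scgn was too low to be tested. In SmoM2 Meis2 did not pass, and Scgn and Th were too low to be tested. The median log2 fold change was 0.72 over the 8 members tested in ShhN IUE and 1.55 over the 7 tested in SmoM2, against -0.0038 and -0.0072 over all genes tested. Between groups, 4 members had all ShhN IUE libraries higher than all wild-type libraries, where 24.5% of genes tested did, and 6 had this in SmoM2, where 20.4% did. The shares of all genes that fell were 17.2% in ShhN IUE and 9.29% in SmoM2. In bulk tissue, more cells of a type and more RNA per cell cannot be told apart.

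**Figure D1:**
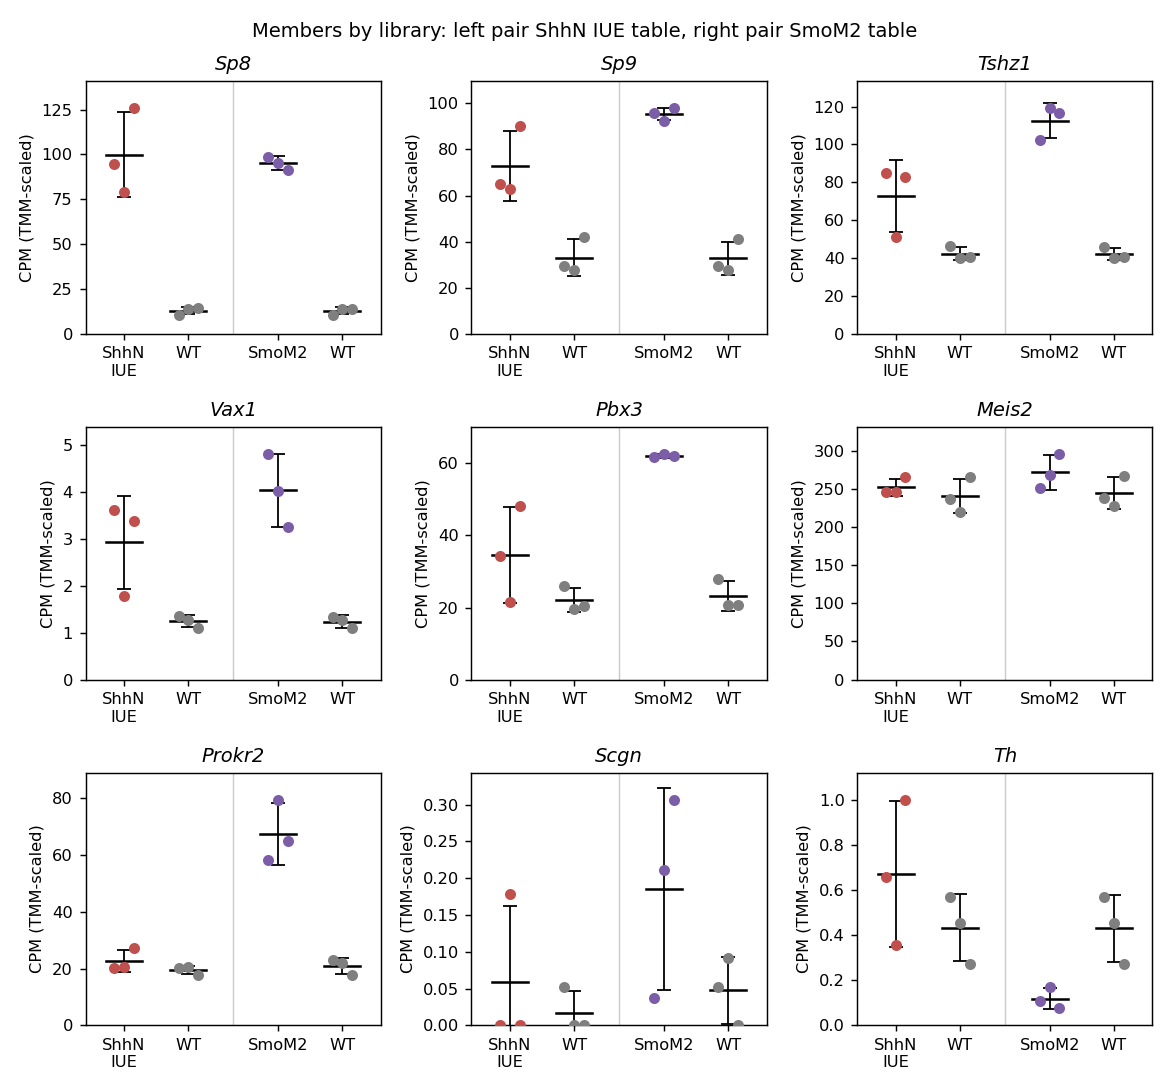
TMM-scaled CPM of each member in every library, with ShhN IUE and its wild type on the left of each panel and SmoM2 and its wild type on the right. Points are libraries and bars give the mean and SD of 3, drawn only above 0. Sp8 was 79.0 to 126 CPM in ShhN IUE and 91.1 to 98.8 CPM in SmoM2, against 10.6 to 14.1 CPM in wild type.

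Sp8 (chromosome 12, 118846329 to 118852578, forward strand, GRCm38 coordinates of the deposited tables) had 94.9, 79.0 and 126 CPM in ShhN IUE libraries 1, 2 and 3, against 10.6, 14.0 and 14.1 CPM in wild-type libraries. In SmoM2 it had 98.8, 95.1 and 91.1 CPM, against 10.6, 14.0 and 14.1 CPM in wild type. Every library of both interventions lay far above every wild-type library. Sp8 rose 7.74-fold in ShhN IUE (log2 fold change 2.95 ± 0.21, SE, n = 3 per group, edgeR adjusted p = 0.000401) and 7.38-fold in SmoM2 (2.88 ± 0.13, edgeR adjusted p = 4.80e-05). By p-value it was number 18 of 16180 genes tested in ShhN IUE and number 4 of 16485 in SmoM2. Its log2 fold change lay between 2.76 and 3.10 over the 13 alternatives in ShhN IUE and between 2.76 and 2.96 over the 13 in SmoM2.

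Sp9 (chromosome 2, 73271925 to 73284706, forward strand) had 64.9, 62.9 and 90.2 CPM in ShhN IUE, against 29.4, 27.8 and 42.2 CPM in wild type. Its levels in SmoM2 were 95.7, 92.5 and 97.9 CPM, against 29.2, 27.8 and 41.1 CPM in wild type. The groups did not overlap in either comparison, and the third library was the highest in wild type. Sp9 rose 2.20-fold in ShhN IUE (log2 fold change 1.14 ± 0.21, SE, n = 3 per group, edgeR adjusted p = 0.00545) and 2.92-fold in SmoM2 (1.55 ± 0.15, edgeR adjusted p = 0.000641). In GENCODE M21, 270 exonic bases of Sp9 are shared with Cir1 on the opposite strand. The sources used here do not give the strand setting of the counting, so reads there could belong to either gene.

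The ratio of Sp8 to Sp9 in FPKM was 1.69, 1.45 and 1.61 in ShhN IUE libraries, against 0.418, 0.580 and 0.386 in wild type. In SmoM2 libraries it was 1.19, 1.19 and 1.07, against 0.418, 0.581 and 0.395 in wild type. Sp8 thus lay above Sp9 in every library of both interventions and below it in every wild-type library. The mean log2 ratio was higher by 1.80 in ShhN IUE and by 1.33 in SmoM2, and the exact permutation test (two-sided, n = 3 per group) gave p = 0.1 for each, its lower limit in this design.

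Tshz1 (chromosome 18, 84011627 to 84086404, reverse strand) had 84.8, 51.0 and 82.8 CPM in ShhN IUE, against 46.4, 40.1 and 40.7 CPM in wild type. The SmoM2 libraries had 102, 119 and 117 CPM, against 45.9, 40.0 and 40.6 CPM in wild type. ShhN IUE library 2 came close to the wild-type range, while all SmoM2 libraries stood well clear of it. Tshz1 rose 1.72-fold in ShhN IUE (log2 fold change 0.78 ± 0.20, SE, n = 3 per group, edgeR adjusted p = 0.0182) and 2.67-fold in SmoM2 (1.42 ± 0.10, edgeR adjusted p = 0.000255). In ShhN IUE its edgeR adjusted p was 0.0648 when ShhN IUE library 1 was left out, and 0.0584 or 0.0605 when wild-type library 2 or 3 was, which ends the call. Over all alternatives it ranged from 0.000800 to 0.0648.

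Vax1 (chromosome 19, 59166187 to 59170056, reverse strand) was the scarcest of the factors, with 71, 30 and 54 counts in ShhN IUE, against 26, 28 and 20 in wild type. SmoM2 libraries 1, 2 and 3 had 131, 95 and 85 counts, against the same 26, 28 and 20 in wild type. As CPM this was 1.78 to 3.61 in ShhN IUE and 3.26 to 4.81 in SmoM2, against 1.10 to 1.35 in wild type, with no overlap. Vax1 rose 2.35-fold in ShhN IUE (log2 fold change 1.23 ± 0.34, SE, n = 3 per group, edgeR adjusted p = 0.0263) and 3.25-fold in SmoM2 (1.699 ± 0.25, edgeR adjusted p = 0.00317). The call in ShhN IUE was lost without ShhN IUE library 1 or 3, without any 1 of the wild-type libraries and with the replicate number as a block, with edgeR adjusted p up to 0.103 and a lowest value of 0.0145 over all alternatives. The call in SmoM2 held in all 13 alternatives.

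Pbx3 (chromosome 2, 34171457 to 34373142, reverse strand) had 34.2, 21.5 and 48.2 CPM in ShhN IUE, against 25.98, 19.7 and 20.5 CPM in wild type. In SmoM2 it had 61.7, 62.6 and 61.9 CPM, against 28.04, 20.7 and 20.8 CPM in wild type. ShhN IUE library 2 lay inside the wild-type range, whereas the SmoM2 libraries were nearly equal and all higher than wild type. Pbx3 rose 2.68-fold in SmoM2 (log2 fold change 1.42 ± 0.13, SE, n = 3 per group, edgeR adjusted p = 0.000529). In ShhN IUE its log2 fold change was 0.65 ± 0.27 and did not pass (edgeR adjusted p = 0.0985). It passed there without ShhN IUE library 2 (log2 fold change 0.91, adjusted p = 0.0164) and with DESeq2 (adjusted p = 0.0471), over a range of 0.0164 to 0.281 in all alternatives.

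Meis2 (chromosome 2, 115863064 to 116065839, reverse strand), the most abundant member in wild type, had 246, 245.5 and 265 CPM in ShhN IUE, against 237, 220.1 and 265 CPM in wild type. Its levels in SmoM2 were 251, 268 and 296 CPM, against 238, 227 and 268 CPM in wild type. The groups overlapped in both comparisons. Its log2 fold change was 0.07 in ShhN IUE (95% interval -0.16 to 0.29, edgeR adjusted p = 0.624) and 0.15 in SmoM2 (-0.07 to 0.37, edgeR adjusted p = 0.301). Meis2 passed in none of the alternatives of either comparison.

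Prokr2 (chromosome 2, 132337733 to 132385447, reverse strand) had 20.2, 20.6 and 27.2 CPM in ShhN IUE, against 20.2, 20.5 and 17.9 CPM in wild type. The SmoM2 libraries had 58.1, 79.4 and 64.7 CPM, against 23.0, 22.1 and 17.7 CPM in wild type. The ShhN IUE libraries overlapped wild type, and the SmoM2 libraries all exceeded it. Prokr2 rose 3.22-fold in SmoM2 (log2 fold change 1.69 ± 0.15, SE, n = 3 per group, edgeR adjusted p = 0.000463). In ShhN IUE its log2 fold change was 0.21, with a 95% interval of -0.15 to 0.57 (edgeR adjusted p = 0.322). Prok2, which encodes the ligand of this receptor, was scarce, at 0.558 ± 0.320 CPM in ShhN IUE and 0.686 ± 0.329 CPM in wild type (SD, n = 3 each), and at 0.374 ± 0.0905 CPM in SmoM2 and 0.608 ± 0.368 CPM in wild type.

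The differentiation markers were at or near 0. Scgn (chromosome 13, 23953456 to 23991214, reverse strand) had 0, 3 and 0 counts in ShhN IUE, against 1, 0 and 0 in wild type. SmoM2 libraries 1, 2 and 3 had 1, 5 and 8 counts, against 1, 2 and 0 in wild type. These counts were below the expression filter and no fold is given. Th (chromosome 7, 142892752 to 142931128, reverse strand) had 13, 6 and 16 counts in ShhN IUE, against 11, 10 and 5 in wild type, and did not pass (log2 fold change 0.62 ± 0.50, edgeR adjusted p = 0.368). In SmoM2 it had 3, 4 and 2 counts, against 11, 10 and 5 in wild type. The SmoM2 libraries were all lower than wild type, as for 19.7% of genes tested, but Th was below the filter. Without a filter its log2 fold change was -1.81 ± 0.52 (SE, edgeR p = 0.00675 unadjusted and 0.0539 adjusted), and the authors' deposited table lists it as down with a q-value of 0.0432. Measured in mean FPKM, Th stayed under 0.2 and Scgn under 0.13 in all groups, so these markers of maturing bulb interneurons were barely detected in this tissue.

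**Figure D2:**
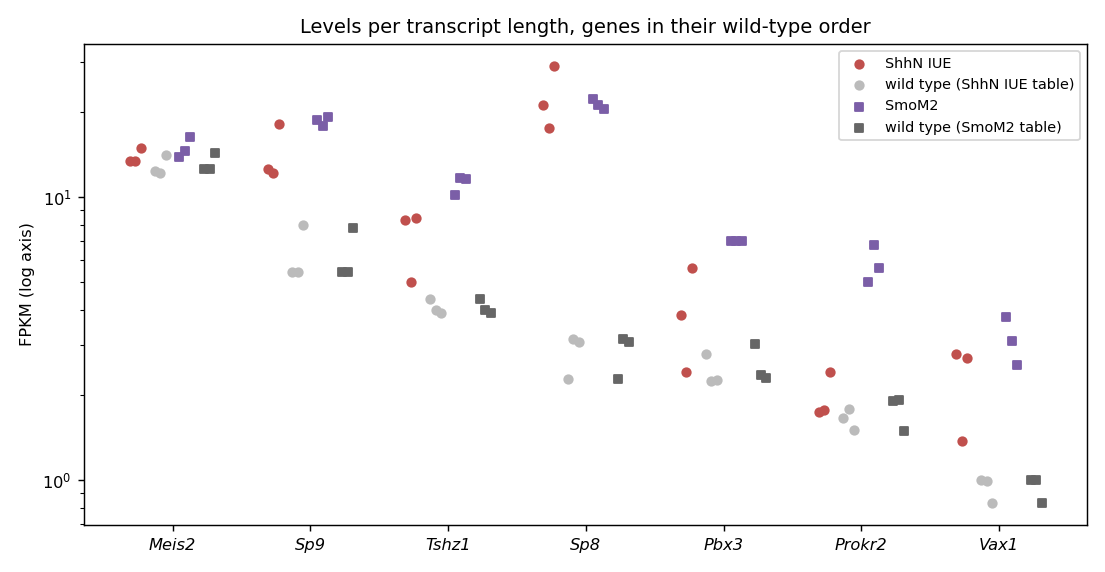
FPKM of the 7 members above the level of Th and Scgn, in every library, on a log axis, with genes in the order of their wild-type means. Sp8 held the first place in ShhN IUE (22.7 FPKM) and SmoM2 (21.4 FPKM), and the fourth in wild type (2.84 FPKM).

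Ranked by mean FPKM, the order in SmoM2 was Sp8 (21.4), Sp9 (18.6), Meis2 (14.9), Tshz1 (11.1), Pbx3 (7.02), Prokr2 (5.81) and Vax1 (3.14), with no overlap between neighbours. In ShhN IUE it was Sp8 (22.7), Sp9 (14.3), Meis2 (14.0), Tshz1 (7.27), Pbx3 (3.96), Vax1 (2.30) and Prokr2 (1.97), where Meis2 and Tshz1 were the single pair of neighbours that did not overlap. In wild type it was Meis2 (12.9), Sp9 (6.29), Tshz1 (4.09), Sp8 (2.84), Pbx3 (2.43), Prokr2 (1.65) and Vax1 (0.943) in the ShhN IUE table, where Sp8 and Pbx3 overlapped. The wild-type order was the same in the SmoM2 table. Sp8 held the first place in both interventions, against the fourth in wild type, while Meis2 kept a level of 12.9 to 14.9 FPKM in all groups.

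The spread between libraries is given as a description. The coefficient of variation of the CPM of Sp8, Sp9, Tshz1, Vax1, Pbx3 and Prokr2 was 17.2% to 38.6% in ShhN IUE, against 7.29% to 23.9% in wild type. In SmoM2 it was 0.756% to 19.2%, against 7.76% to 22.4% in wild type. ShhN IUE library 2 was the lowest of its group for 5 of these 6 genes, and Sp8, Sp9, Pbx3 and Prokr2 were highest in library 3. Ptch1, the SHH receptor and a target of the pathway, had 133, 115 and 301 CPM in ShhN IUE libraries 1, 2 and 3, against 29.7, 42.4 and 49.99 CPM in wild type. Its levels in SmoM2 were 271, 299.6 and 293.5 CPM, against 30.0, 42.95 and 50.9 CPM in wild type. Gli1, the target gene that encodes an activator of the same pathway, had 26.03, 27.7 and 68.9 CPM in ShhN IUE, against 5.65, 9.13 and 7.745 CPM in wild type. The part of these levels in the spread of the members was not tested.

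**Figure D3:**
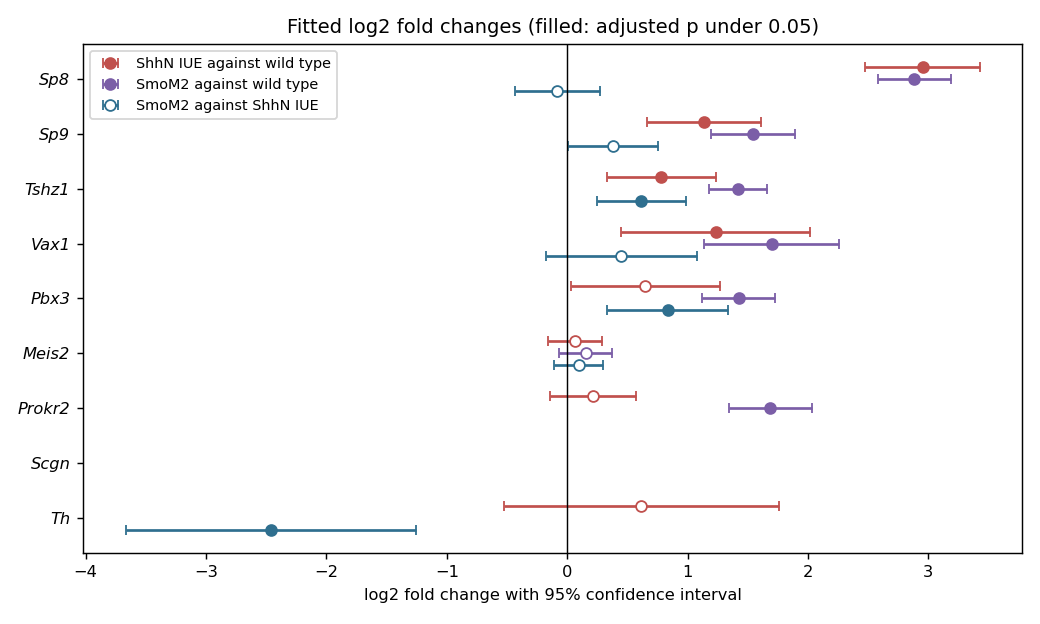
Log2 fold change of each member with its 95% confidence interval in 3 comparisons, filled where the adjusted p was under 0.05. Sp8 lay near 3 against wild type in both interventions and near 0 between them, Scgn was not tested, and Prokr2 has no value between the interventions because its wild-type counts differed between the tables.

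SmoM2 and ShhN IUE were set against each other in a fit of all 9 libraries over 12349 genes whose wild-type counts agreed between the tables, where 8.45% of genes were higher in SmoM2 and 8.07% lower. Of 7 members in this fit, Tshz1 and Pbx3 were higher in SmoM2 and Th was lower. Libraries did not overlap for Sp9, Tshz1 and Pbx3, higher in SmoM2, where 20.4% of genes did this, or for Th, lower in SmoM2, where 20.6% did. Tshz1 was 1.53-fold higher in SmoM2 (log2 fold change 0.62 ± 0.17, SE, n = 3 per group, edgeR adjusted p = 0.0318), at 171 ± 13.5 CPM in SmoM2 and 112 ± 28.9 CPM in ShhN IUE (SD). Pbx3 was 1.78-fold higher in SmoM2 (0.83 ± 0.23, edgeR adjusted p = 0.0318), at 94.2 ± 0.67 CPM in SmoM2 and 52.8 ± 20.1 CPM in ShhN IUE. These CPM are relative to the genes of this fit and are higher than those above. Both calls were lost without any 1 of the SmoM2 libraries, and that of Pbx3 also without ShhN IUE library 1, with edgeR adjusted p of 0.0551 to 0.103.

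Th was lower in SmoM2 than in ShhN IUE, with 9 counts in SmoM2 and 35 in ShhN IUE over 3 libraries each (log2 fold change -2.46 ± 0.55, SE, edgeR adjusted p = 0.0134). The call was lost without SmoM2 library 1 or 3 (edgeR adjusted p = 0.0531 and 0.0638). It was also absent with a filter of 1 CPM in 3 libraries and with DESeq2, which gave Th no adjusted p. With the SmoM2 and ShhN IUE libraries alone there was no call either. Th was too low to be tested in SmoM2 against wild type, so the call here depends on the filter and on the libraries included. No difference was detectable for Sp8, with a log2 fold change of -0.08 and a 95% interval of -0.43 to 0.27 (edgeR adjusted p = 0.758). Sp9 (0.38, interval 0.0093 to 0.76, edgeR adjusted p = 0.144), Vax1 (0.45, interval -0.18 to 1.08, adjusted p = 0.304) and Meis2 (0.10, interval -0.11 to 0.30, adjusted p = 0.505) did not pass. Sp9 passed without ShhN IUE library 3 (adjusted p = 0.0390).

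Prokr2 fell outside this fit, since its wild-type counts differed by 0.10 on the log2 scale between the tables, just past the tolerance of 0.1. With the tolerance set at 0.2, over 14112 genes, Prokr2 was 2.96-fold higher in SmoM2 (log2 fold change 1.57 ± 0.15, SE, n = 3 per group, edgeR adjusted p = 0.000394), at 84.5 ± 13.6 CPM in SmoM2 and 28.6 ± 4.72 CPM in ShhN IUE (SD). The interval of that log2 fold change was 1.23 to 1.90. The shift between the tables was measured on wild-type counts only, since the SmoM2 and ShhN IUE libraries each stand in a single table. Its size in those libraries, and its part in this difference, was not tested.

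**Figure D4:**
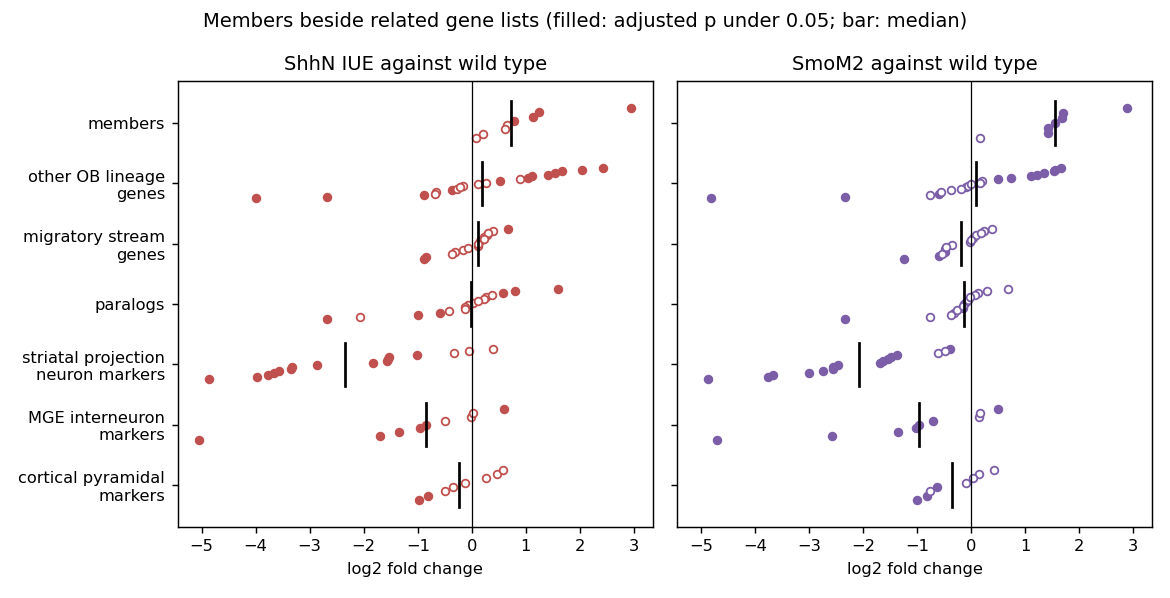
Log2 fold changes of the tested members and of 6 other gene lists in each intervention against wild type, filled where the adjusted p was under 0.05, with a bar at each median. The members lie mostly right of 0 (medians 0.72 in ShhN IUE and 1.55 in SmoM2) and the striatal markers mostly left of it (-2.34 and -2.07).

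Other genes of this interneuron lineage were split. Of 20 tested, 8 rose and 4 fell in ShhN IUE, with a median log2 fold change of 0.18, and 2 fell when wild-type library 3 was left out. In SmoM2 8 rose and 3 fell, with a median of 0.08. Over all genes tested, 16.1% rose and 17.2% fell in ShhN IUE, and 9.59% rose and 9.29% fell in SmoM2. Dlx1 and Dlx2, homeobox genes of GABAergic precursors, rose in both. Dlx1 had 402 ± 97.3 CPM in ShhN IUE and 127 ± 6.06 CPM in wild type (SD, n = 3 each, log2 fold change 1.66, edgeR adjusted p = 0.000848), and 388 ± 18.3 CPM in SmoM2 and 134 ± 10.2 CPM in wild type (1.53, edgeR adjusted p = 0.000104). Dlx2 rose by 1.53 on the log2 scale in ShhN IUE and by 1.66 in SmoM2. Six3, a homeobox gene of the ventral forebrain and of striatal neurons, fell in both, with 0.269 ± 0.0997 CPM in ShhN IUE and 4.35 ± 0.2497 CPM in wild type, and 0.154 ± 0.0995 CPM in SmoM2 and 4.52 ± 0.176 CPM in wild type. The other genes that fell in ShhN IUE were Calb1 (log2 fold change -2.685), Nr2f2 (-0.88) and Dcx (-0.37), with edgeR adjusted p of 0.00341, 0.0433 and 0.0181. Calb1 also fell in SmoM2 (-2.33, edgeR adjusted p = 0.00629), where Nr2f2 and Dcx did not pass. Pax6 rose by 2.03 on the log2 scale in ShhN IUE and by 1.10 in SmoM2 (edgeR adjusted p = 0.000401 and 0.00120), but its wild-type counts differed between the tables (962 in that of ShhN IUE and 1150 in that of SmoM2), so these sizes are not compared. Dlx5 rose by 1.41 in ShhN IUE and by 1.34 in SmoM2. Dlx6 passed in neither (log2 fold change -0.27 in ShhN IUE and -0.38 in SmoM2). Its wild-type counts also differed between the tables (596 in that of ShhN IUE and 441 in that of SmoM2), so its sizes are not compared either. Of the genes of GABA synthesis, Gad1 rose in both (1.04 and 0.50) and Gad2 passed in neither (0.25 and -0.09). Slc32a1, the vesicular GABA transporter, did not pass in ShhN IUE (-0.17) and fell in SmoM2 (-0.59, edgeR adjusted p = 0.00664).

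Most paralogs of the members did not pass in either comparison. Of 16 paralogs and related genes tested in ShhN IUE, 3 rose (Pbx2, Meis1 and Sp7) and 3 fell (Calb1, Tshz2 and Tshz3), with a median log2 fold change of -0.02. These counts are near the shares over all genes tested there, of which 16.1% rose and 17.2% fell. In SmoM2 0 of 15 rose and 1 fell, Calb1, with a median of -0.13, and 2 fell when wild-type library 1 was left out. That 0 was by edgeR, and it was also 0 at an unadjusted p under 0.05 and by DESeq2 and limma-voom. Sp1, a broadly expressed relative of Sp8 and Sp9, had 62.1 ± 4.20 CPM in ShhN IUE and 51.8 ± 8.38 CPM in wild type, and 58.3 ± 2.45 CPM in SmoM2 and 53.6 ± 4.84 CPM in wild type (SD, n = 3 each), and passed in neither. Tshz3 fell by 0.60 on the log2 scale in ShhN IUE (edgeR adjusted p = 0.0165), and the count of 3 that fell became 1 when ShhN IUE library 1 was left out. Calb1, which encodes the calcium-binding protein calbindin, varied widely in wild type (16.6 ± 9.39 CPM, SD, n = 3, in the ShhN IUE table) and fell by 2.69 in ShhN IUE and by 2.33 in SmoM2. The rise of Pbx2 was 0.80 on the log2 scale in ShhN IUE, and the count of 3 became 1 with the replicate block and when ShhN IUE library 1, wild-type library 1 or wild-type library 3 was left out.

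Of 15 guidance and adhesion genes of the rostral migratory stream, 1 rose in ShhN IUE, Cxcr4 (log2 fold change 0.67, edgeR adjusted p = 0.0248), and 2 fell, Reln and Erbb4. Cxcr4, a chemokine receptor of migrating neurons, was no longer called when ShhN IUE library 1 or library 3 was left out. In SmoM2 0 of 14 tested rose by edgeR (1 at an unadjusted p under 0.05, 0 by DESeq2 and 0 by limma-voom), and 3 fell, Reln, Robo1 and Slit2. Reln, the extracellular signal of Cajal-Retzius and other neurons, fell by 0.88 on the log2 scale in ShhN IUE and by 1.24 in SmoM2. Without wild-type library 1 the count that rose in ShhN IUE was 2, and without wild-type library 3 the count that rose in SmoM2 was 1. The medians were 0.12 in ShhN IUE and -0.19 in SmoM2. Over all genes tested, 16.1% rose and 17.2% fell in ShhN IUE, and 9.59% rose and 9.29% fell in SmoM2.

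Of 6 genes of catecholamine synthesis and transport that were tested, 1 rose and 1 fell in ShhN IUE, and 0 rose and 1 fell in SmoM2 (0 rose also at an unadjusted p under 0.05 and by DESeq2 and limma-voom). The shares over all genes tested were 16.1% and 17.2% in ShhN IUE, and 9.59% and 9.29% in SmoM2. Slc18a2, the vesicular monoamine transporter, rose by 1.20 on the log2 scale in ShhN IUE (edgeR adjusted p = 0.0354), to 18.9 ± 10.5 CPM in ShhN IUE, against 8.21 ± 0.805 CPM in wild type, a call that ended with limma-voom, with the replicate block, and when ShhN IUE library 1 or 3 or any 1 wild-type library was left out. Pts, an enzyme of the tetrahydrobiopterin cofactor of tyrosine hydroxylase, fell by 0.94 in ShhN IUE and by 0.48 in SmoM2, the second lost without any 1 of the SmoM2 libraries, without wild-type library 2 and with the replicate block. Ddc, which encodes the enzyme after tyrosine hydroxylase, stayed low, at 0.455 ± 0.512 CPM in ShhN IUE and 0.902 ± 0.508 CPM in wild type, and 1.44 ± 0.480 CPM in SmoM2 and 0.900 ± 0.506 CPM in wild type (SD, n = 3 each).

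Markers of other cells also changed, and the striatal and MGE lists mostly fell. Of all genes tested, 16.1% rose and 17.2% fell in ShhN IUE, and 9.59% rose and 9.29% fell in SmoM2. Of 16 striatal projection neuron markers 13 fell in ShhN IUE and 14 in SmoM2. Their summed level was 283 to 389 CPM in ShhN IUE, against 424 to 604 CPM in wild type, and 354 to 362 CPM in SmoM2, against 589 to 812 CPM in wild type. Much of the ShhN IUE sum was Foxp1 (151.5 CPM) and Pde10a (86.0 CPM), which did not pass there. Wild-type counts of some markers differed between the tables, those of Pde10a being 5246 in that of ShhN IUE and 12806 in that of SmoM2. The sums are therefore not compared between the interventions. Of 9 MGE (medial ganglionic eminence) interneuron markers 5 fell and 1 rose in ShhN IUE, and 6 fell and 1 rose in SmoM2, with summed levels of 488 to 579 CPM in ShhN IUE, against 658 to 691 CPM in wild type, and 503 to 541 CPM in SmoM2, against 623 to 692 CPM in wild type. Of 8 cortical pyramidal neuron markers 2 fell in ShhN IUE and 3 in SmoM2, and all 8 were detected in every group, as the tissue label requires. Of 5 mitral and tufted cell markers 4 were tested in each comparison. Of these 2 fell in ShhN IUE and all 4 in SmoM2, and their defining factor Tbx21 had 0.426 CPM in ShhN IUE and 0.397 CPM in wild type, and 0.272 CPM in SmoM2 and 0.397 CPM in wild type. Of the 5 midbrain dopamine neuron markers found, En1 and Foxa1 were at 0 in ShhN IUE and Foxa1 also in SmoM2. In wild type they were near 0 too (0.0627 and 0.183 CPM in the ShhN IUE table). The summed level of the 5 markers was 10.3 to 30.9 CPM in ShhN IUE, against 8.41 to 9.44 CPM in wild type, and 7.12 to 11.0 CPM in SmoM2, against 8.21 to 9.45 CPM in wild type. Nearly all of this sum was Slc18a2, with means of 18.9 CPM in ShhN IUE and 8.21 CPM in wild type, so it does not describe the list. Of the markers tested for choroid plexus, blood and meninges, 1 of 2, 1 of 3 and 0 of 5 rose in SmoM2 by edgeR. There, DESeq2 called 0 choroid plexus, 2 blood and 0 meninges markers, limma-voom called 0, 1 and 0, and 1, 3 and 0 had an unadjusted p under 0.05 with edgeR. In ShhN IUE 0 of 2, 0 of 4 and 0 of 5 rose, where 1 blood marker had an unadjusted p under 0.05 and DESeq2 and limma-voom called 0. Summed meninges markers varied most between libraries, at 13.2 to 514 CPM in ShhN IUE, against 11.1 to 331 CPM in wild type, and 134 to 277 CPM in SmoM2, against 11.1 to 331 CPM in wild type. The part of these cells in the levels of the members was not tested.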

How the data were processed

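RNA from 9 cortex libraries was analysed, grouped by sample title. The authors deposited 2 tables, one per intervention with wild type. Per the file headers, these give, for every gene, read counts and FPKM in each library. The deposited p-value and q-value columns hold the comparison made by the authors. Per the submitters' processing notes, the tools were edgeR, StringTie and HISAT2, and the builds mm10 and GRCm38.p4, with no roles or versions. How reads were counted, and with what strand setting, was not given there.

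Counts were tested in R 4.3.3 with edgeR 4.0.16 (quasi-likelihood F test, TMM, default expression filter by group) within each table, with Benjamini-Hochberg adjustment over all genes tested. SE was taken from the fold change and the F statistic. SmoM2 was set against ShhN IUE in a fit of all 9 libraries over genes whose summed wild-type counts, with 5 added, agreed within 0.1 (log2). Its wild-type counts are the rounded mean of both tables. Genes were named by a rule: all 9 members, up to 4 genes per list by adjusted p, any count of 5 or fewer, and the 3 genes most like each member by Pearson r of log2(CPM + 1). Sp1, Prok2, Ddc, Tbx21, Ptch1, Gli1, Dlx6, Gad1 and Gad2 were chosen after their values were seen. Alternatives were RLE or upper quartile scaling, other filters, DESeq2 1.42.0, limma-voom (limma 3.58.1), the replicate block, leaving out each library, and other tolerances. The members, lists and tests were chosen with earlier results of these data known. The functions were checked on simulated counts. No library was a repeat deposit of another: chi-square per degree of freedom between replicates was 16.5 to 34.3.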

Additional observations from a re-analysis of the deposited data

Results flagged for a closer look

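Of the 7 members in the direct test of SmoM2 against ShhN IUE, 3 differed (edgeR quasi-likelihood test over 12349 genes, n = 3 per group). Of all genes in this test, 8.45% were higher in SmoM2 and 8.07% lower. The log2 fold change of Tshz1 was 0.62, higher in 3 of 3 SmoM2 libraries than in any ShhN IUE library. That of Pbx3 was 0.83, with the same separation of libraries. That of Th was -2.46, lower in 3 of 3 SmoM2 libraries, on 9 counts in SmoM2 and 35 in ShhN IUE. Such separation was found for 20.4% of all genes tested, higher in SmoM2, and for 20.6%, lower in SmoM2. Prokr2 was outside this test by the tolerance of 0.1. With a tolerance of 0.2, over 14112 genes, it was higher in SmoM2 by 1.57 on the log2 scale (edgeR adjusted p = 0.000394). The calls of Tshz1 and Pbx3 were lost without any 1 of the SmoM2 libraries (edgeR adjusted p of 0.0551 to 0.103), and that of Th without SmoM2 library 1 or 3. That of Th was also absent with a filter of 1 CPM in 3 libraries, with DESeq2, and with the SmoM2 and ShhN IUE libraries alone. No explanation was tested. Groups of 3 libraries are too small for a check of single outlying samples.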

How the results depend on the processing

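Sp8 and Sp9 rose in both interventions, and Tshz1, Vax1, Pbx3 and Prokr2 in SmoM2, in all 13 alternatives. Leaving out 1 library at a time gave 2 to 5 members that rose in ShhN IUE against wild type, and 0 to 1 that fell in SmoM2 against wild type, the 1 being Th without wild-type library 3. Between SmoM2 and ShhN IUE it gave 0 to 3 members higher in SmoM2 and 0 to 1 lower, and the Sp8 log2 fold change ran from -0.22 to 0.11, the sign turning without ShhN IUE library 3. There, 1 member was higher in SmoM2 with a tolerance of 0.05, and 0 were lower with a filter of 1 CPM in 3 libraries, with DESeq2, which gave Th no adjusted p, and with the SmoM2 and ShhN IUE libraries alone. The cause was not tested. Leaving out a library also moved the counts over all genes by more than 1.5 times: 1567 rose and 1684 fell in ShhN IUE without its library 1, and 733 to 956 rose and 601 to 787 fell in SmoM2 without 1 of its libraries. Between SmoM2 and ShhN IUE 483 to 643 were higher and 351 to 482 lower in SmoM2 without 1 of the SmoM2 libraries or ShhN IUE library 1, against 1043 and 997 with all libraries.

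Replicate numbers were not taken as pairs, since same-numbered libraries deviated together with correlations of only -0.32 to 0.26. With the replicate block 3 members rose in ShhN IUE and 6 in SmoM2, and 2 were higher and 1 lower in SmoM2 than in ShhN IUE. Vax1 in ShhN IUE was not called with the block (edgeR adjusted p = 0.0638). Genes near 1 CPM or below, such as Th and Scgn, are limited by depth.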

Other observations

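The genes whose log2 CPM followed a member most closely over the 9 libraries (Pearson r, 9050 genes with a mean of at least 5 CPM, mean wild-type counts of both tables) are given as a description with no p, since the 9 libraries form 3 groups and share them. For Sp8 they were Sall1, Usp28 and Entpd2 (each r = 0.99). For Sp9 they were Tmem2, Btg1 and Nedd1 (r = 0.99 each). Tshz1 and Pbx3 were in each other's list (r = 0.96), and Ntsr2, which encodes a neurotensin receptor, stood in the lists of Tshz1, Vax1 and Pbx3 (r = 0.96, 0.96 and 0.97). Meis2 was followed less closely, with Asap1 first at r = 0.94.

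The authors' deposited table for ShhN IUE lists Tshz1 with a q-value of 0.00274 but with no direction call, while Sp8, Sp9 and Vax1 are listed as up. Their table for SmoM2 lists Sp8, Sp9, Tshz1, Vax1, Pbx3 and Prokr2 as up.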
